A study of Homo sapiens with 15 samples.

Results

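GATA2 and RUNX1 were compared as they sit on chromatin in 1 cell line, TF-1 cells that express the mutant cohesin subunit RAD21 Q592*. All peaks of the GATA2 and RUNX1 lists of that line on chromosomes 1 to 22 were taken, 57483 for GATA2 and 15216 for RUNX1. These are 72699 of the 198298 peaks in the 6 lists of the series. A place was called joint where a GATA2 and a RUNX1 peak overlapped by at least 1 bp, and GATA2-only or RUNX1-only where a peak had no partner in the other list. TF-1 is a human erythroleukemia line that depends on added cytokines. The Q592* cells carried a doxycycline-inducible vector for RAD21 with a premature stop codon, and the line set beside them, WT, carried the same kind of vector for wild-type RAD21. Both were induced for 6 days, so doxycycline is common to all groups. The labels give 2 GATA2 libraries and 1 RUNX1 library for Q592*, 2 of each for WT, and 2 inputs per line. Whether a line was a single clone, and how much of the cells' own RAD21 remained, is not given in the sources used here.

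GATA2 is a zinc finger transcription factor needed for the maintenance and growth of blood stem and progenitor cells. RUNX1 is the DNA-binding subunit of core binding factor, which it forms with CBFB, and it is needed for the emergence of blood stem cells and for platelet formation. In blood progenitors GATA2 and RUNX1 occupy many enhancers together with TAL1, LYL1, LMO2, ERG and FLI1, and both genes are mutated in myeloid leukemia. Cohesin, whose subunits include RAD21 and SMC3, extrudes chromatin loops and holds sister chromatids together. A peak list holds no RNA levels, so the identity of the cells was not checked against expression markers.

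Each target is represented by 1 list per line, with no value per library. The RUNX1 list of Q592* is named as a merged list although the labels give 1 library for it. There is therefore no replicate spread, no test between lists is given, and every difference is one between pooled lists. Intervals are 95% Wilson intervals and cover counting error only. The strength of a peak is the authors' −log10 q, the adjusted p-value of its summit against the local background, and ranks are taken within a list. Read totals recovered from the peak values were 106 M for the GATA2 pool and 107 M for the RUNX1 pool, M standing for 1000000 reads. The background totals were 78.0 M for both, so the lists may rest on the same input reads, and errors of that background would then be common to both. The lists were alike in median strength, with a −log10 q of 15.2 for GATA2 and 14.3 for RUNX1. They differed in their upper end, which reached 822 for GATA2 and 441 for RUNX1, and in the sequence covered, 19.0 Mb by GATA2 peaks and 4.002 Mb by RUNX1 peaks.

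Most RUNX1 peaks lay on a GATA2 peak, and most GATA2 peaks lay on no RUNX1 peak. The lists joined into 61291 regions, of which 11225 (18.3%) were joint, 46249 (75.5%) GATA2-only and 3817 (6.23%) RUNX1-only. Of the GATA2 peaks 11234 (19.5%, interval 19.2 to 19.9%) had a RUNX1 partner, and of the RUNX1 peaks 11399 (74.9%, 74.2 to 75.6%) had a GATA2 partner. Joint regions mostly held a single peak of each kind, so the unequal shares restate the unequal lengths of the lists. With the GATA2 list trimmed to its 15216 strongest peaks the shares came to 48.1% of the GATA2 peaks and 49.1% of the RUNX1 peaks. Lists of equal length give near-equal shares by the same counting, and the trim also kept only the stronger GATA2 peaks. Few joint regions held more than a single peak of each kind: 169 had more than 1 RUNX1 peak and 9 more than 1 GATA2 peak.

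The overlaps were deep. RUNX1 peaks were narrower, and 7979 of the 11408 overlapping pairs (69.9%) had the RUNX1 peak wholly inside the GATA2 peak. The median overlap was 238 bp. Only 16 pairs overlapped by 20 bp or less, with a median RUNX1 −log10 q of 8.62, and 12 RUNX1 peaks missed a GATA2 peak by less than 20 bp, with a median of 10.8. Few RUNX1 peaks thus lay this close to the line that the 1 bp rule draws between joint and single. Another rule moved many: a reciprocal overlap of 50% gave 7215 joint and 8001 RUNX1-only regions.

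Joint peaks were the strong and wide ones, above all for GATA2. GATA2 peaks with RUNX1 had a median −log10 q of 60.04 (quartiles 23.4 and 138), against 12.4 (7.44 and 25.2) for GATA2 peaks without. Their median fold enrichment over the local background was 9.13 with RUNX1 and 4.57 without, and their median width 436 and 257 bp. For RUNX1 the contrast was smaller: a median −log10 q of 15.5 with GATA2 and 12.2 without, a fold of 4.89 and 4.04, and a width of 254 and 199 bp. A wide peak also has more room to overlap, and the part of width in the overlap was not tested.

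Under the 1 bp rule the partner share moved more with strength for GATA2 than for RUNX1. From the weakest to the strongest quartile of GATA2 peaks, 4.42%, 8.02%, 16.3% and 49.5% had a RUNX1 partner. In the strongest decile the share was 70.7%, among the 1000 strongest peaks it was 92.1%, and each of the 100 strongest had a partner (100%, 96.3 to 100%). RUNX1 peaks had GATA2 in 70.8%, 69.5%, 75.03% and 84.3% of cases from the weakest to the strongest quartile. Their share stayed between 68.7% and 72.9% over the weaker 6 deciles and was 89.2% in the strongest decile. The contrast between the factors depended on the overlap rule. With a reciprocal overlap of 50%, GATA2 was at 29.0% of the weakest and 70.3% of the strongest RUNX1 quartile, and RUNX1 at 3.37% of the weakest and 28.5% of the strongest GATA2 quartile.

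**Figure D1:**
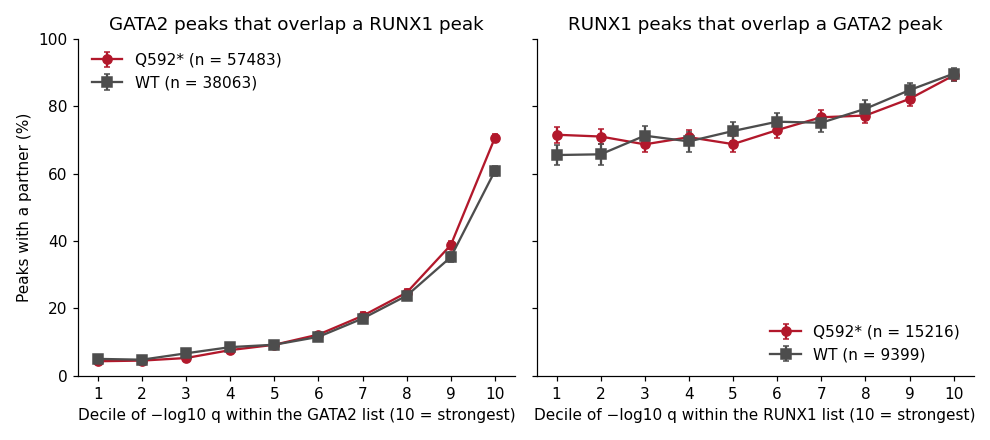
Percentage of GATA2 peaks that overlap a RUNX1 peak (left) and of RUNX1 peaks that overlap a GATA2 peak (right), by decile of −log10 q within each list, for Q592* (circles) and WT (squares). Bars are 95% Wilson intervals. In Q592* the GATA2 curve climbs to 70.7% in the strongest decile, while the RUNX1 curve lies between 68.7% and 89.2% throughout.

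WT had nearly the same overall shares, 18.3% of 38063 GATA2 peaks and 74.9% of 9399 RUNX1 peaks, in shorter lists. The strongest GATA2 peaks differed more. The strongest quartile of GATA2 peaks carried RUNX1 in 49.5% of cases in Q592* (48.6 to 50.3%) and 43.5% in WT (42.5 to 44.5%). For the 1000 strongest GATA2 peaks of each list the values were 92.1% in Q592* and 78.5% in WT, where 1000 peaks are a larger part of the list. The strongest RUNX1 peaks did not differ in this way. GATA2 was at 84.3% of the strongest RUNX1 quartile in Q592* and 86.0% in WT, and at 90.4% and 89.8% of the 1000 strongest. The RUNX1 list was also longer in Q592*, at 15216 peaks against 9399 in WT, and the part of list length in the GATA2 gaps was not tested.

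Where both factors were called, their summits lay close together. For each RUNX1 peak with GATA2, the distance to the nearest summit among the overlapping GATA2 peaks had a median of 34 bp (quartiles 15 and 66 bp). It was at most 25 bp for 40.3% of the 11399 peaks, at most 50 bp for 65.1%, at most 100 bp for 86.4% and at most 200 bp for 94.6%. The summits coincided at 113 peaks and were over 500 bp apart at 102. WT gave a median of 37 bp over 7040 peaks. The chromatin had been sheared to 200 to 400 bp on average, per the labels, so these distances lie well below the length of a fragment.

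Summits were closer for strong RUNX1 peaks. The median distance was 43, 32, 33 and 30 bp from the weakest to the strongest RUNX1 quartile, and the share within 50 bp was 55.5% in the weakest and 72.3% in the strongest. By GATA2 strength the medians were 40, 37, 35 and 32 bp. The widest quartile of the GATA2 partners gave 43 bp and 55.3% within 50 bp, the narrowest 31 bp and 68.6%. Joint sites with an SMC3 peak had a median of 36 bp and those without SMC3 33 bp.

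**Figure D2:**
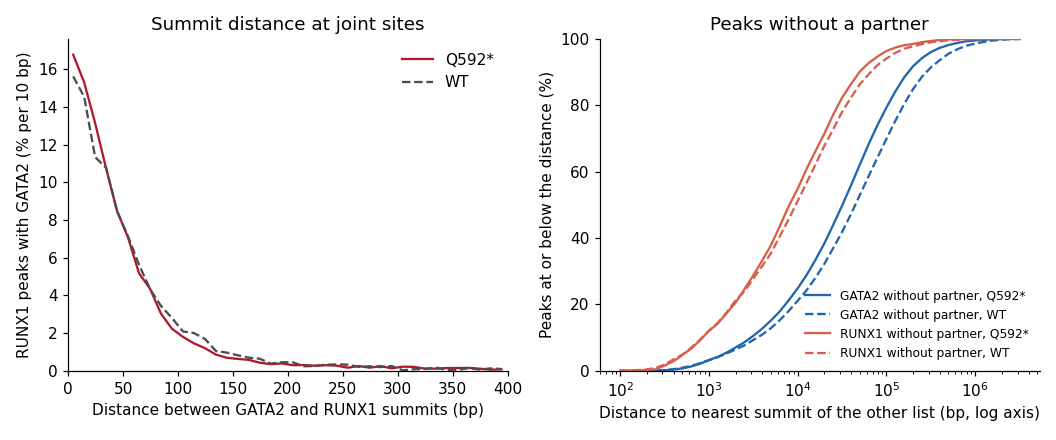
Left, distance between GATA2 and RUNX1 summits at joint sites, as the percentage of RUNX1 peaks with GATA2 in each 10 bp bin, for Q592* (solid) and WT (dashed). Right, percentage of peaks without a partner whose nearest summit of the other list lies at or below the distance on the log axis. In Q592* the median is 34 bp at joint sites, 32.0 kb for GATA2 peaks without RUNX1 and 8.03 kb for RUNX1 peaks without GATA2.

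Single sites were rarely near misses. The 46249 GATA2 peaks without RUNX1 had the nearest RUNX1 summit at a median of 32.0 kb (quartiles 10.1 and 82.8 kb). Within 1 kb lay 1496 of them (3.23%), within 10 kb 24.8% and within 100 kb 79.3%, and 218 were over 1 Mb away. The 3817 RUNX1 peaks without GATA2 had the nearest GATA2 summit at a median of 8.03 kb (2.57 and 23.1 kb). Within 1 kb lay 459 of them (12.03%), within 10 kb 54.8% and within 100 kb 96.4%. The GATA2 list holds more places to be near to, and at equal list lengths the medians were 29.3 kb for GATA2 and 30.3 kb for RUNX1 peaks. The distance hardly moved with strength: from the weakest to the strongest quartile it was 32.2, 32.9, 32.5 and 29.3 kb for GATA2 and 7.81, 8.31, 8.04 and 8.11 kb for RUNX1.

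Joint sites stood in slightly denser surroundings. Another GATA2 peak lay within 10 kb of 66.5% of the GATA2 peaks with RUNX1 and of 61.0% of those without. Another RUNX1 peak lay within 10 kb of 32.5% of the RUNX1 peaks with GATA2 and of 25.2% of those without.

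Among joint pairs the strengths of GATA2 and RUNX1 were weakly related. Only places where both peaks were called enter here, so GATA2 peaks without RUNX1 have no part in the values. Over the 11399 joint pairs Spearman's rho between the −log10 q values was 0.29, and between the fold enrichments 0.30. The pairs share a genome position, and with it copy number and local background. With pairs at high local background left out rho was 0.28 over 7722 pairs. It was 0.30 for pairs with summits within 50 bp and 0.25 for pairs farther apart. By chromosome it lay between 0.11 on chromosome 22 and 0.45 on chromosome 14. WT gave 0.26 over 7040 pairs. With peaks required to overlap reciprocally by 50% it was 0.48, a rule that leaves out pairs of very different width.

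The median percentile of the joint peaks was 83.9 within the GATA2 list and 53.3 within the RUNX1 list. The lists differ in length, and joint peaks make up 19.5% of the GATA2 and 74.9% of the RUNX1 list, which holds the RUNX1 median near the middle. Over all joint pairs, 63.7% of the RUNX1 peaks lay on a GATA2 peak of the strongest quartile and 5.55% on one of the weakest. Of the 3206 joint pairs with a RUNX1 peak of the strongest quartile, 78.7% had a GATA2 peak of the strongest quartile and 2.37% one of the weakest. Of the 2694 joint pairs with a RUNX1 peak of the weakest quartile, 52.9% had a GATA2 peak of the strongest quartile. Turned round, 34.7% of the joint pairs with a GATA2 peak of the strongest quartile had a RUNX1 peak of the strongest quartile. Among all joint pairs it was 28.1%. The median RUNX1 percentile was 34.0 on the weakest and 60.6 on the strongest GATA2 quartile.

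**Figure D3:**
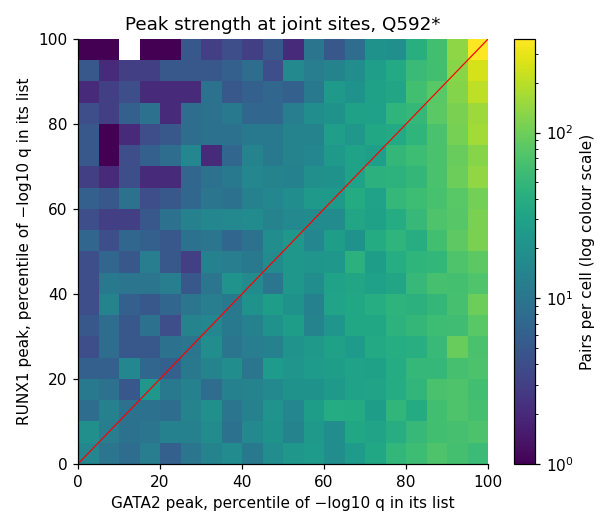
Percentile of −log10 q of the GATA2 peak (horizontal) and of the RUNX1 peak (vertical), each within its own Q592* list, for the 11399 joint pairs; colour gives the number of pairs per cell on a log scale and the red line marks equal percentiles. Pairs crowd at the right edge, where GATA2 is strong, over the whole range of RUNX1 strength (rho 0.29).

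Where both factors were called in both lines, the imbalance between them recurred. These sites were chosen by the calls of both lines, so places where WT lacked the weaker factor are not among them. At the 5972 pairs joint in Q592* and in WT, the GATA2 percentile minus the RUNX1 percentile had a rho of 0.77 between the lines. GATA2 led by more than 50 percentile points in Q592* at 770 of these pairs, with a median lead of 64.8 points in Q592* and 57.3 in WT, and it also led in WT at 98.7% of them. RUNX1 led by more than 50 points at 58 pairs, by a median difference of -60.0 points in Q592* and -54.0 in WT, and led in WT at each of the 58. The sites share their genome position between the lines, which have separate inputs by their labels. Copy number was not measured in either line.

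The order of the summits recurred too. The GATA2 summit moved by a median of 16 bp between the lines and the RUNX1 summit by 20 bp, against 32 bp in Q592* and 36 bp in WT between the factors. RUNX1 lay on the same side of GATA2 in both lines at 59.6% of pairs 1 to 25 bp apart in Q592*, 73.1% of those 26 to 50 bp apart, 81.5% of those 51 to 100 bp apart and 87.3% of those farther apart. Distances below about 25 bp are thus close to the shift of a single summit between lists.

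**Figure D4:**
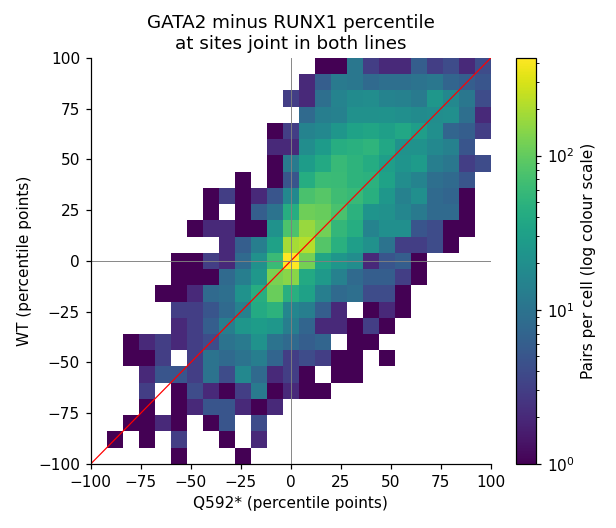
GATA2 percentile minus RUNX1 percentile at the 5972 pairs joint in both lines, in Q592* (horizontal) and in WT (vertical), in percentile points; colour gives the number of pairs per cell on a log scale and the red line marks equal values. The cloud follows the line (rho 0.77), with more pairs on the GATA2 side, right of and above 0.

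The strongest joint sites, ranked by the weaker of the 2 percentiles, reached the top of both lists. Positions are in hg19, counted from 1. Genes are not named at any position, because no annotation of hg19 was used here. The first, on chromosome 6 from 135643945 to 135645225, had a GATA2 −log10 q of 729 with a fold of 39.7 and a RUNX1 −log10 q of 340.3 with a fold of 24.5, and the summits were 31 bp apart. Chromosome 3 held the strongest RUNX1 peak of the list, at a site from 167659011 to 167660211, with a RUNX1 −log10 q of 441 and a GATA2 −log10 q of 528. A site on chromosome 6 from 130834593 to 130835397 had the highest folds of the 8, 49.3 for GATA2 and 43.4 for RUNX1. All 8 sites were also called for both factors in WT, with a −log10 q between 184 and 657 for GATA2 and between 119 and 257 for RUNX1. SMC3 was called at 7 of the 8 in Q592*, with a −log10 q between 9.41 and 31.5. The exception lay on chromosome 10 from 96059042 to 96059880, where WT had no SMC3 peak either.

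Joint sites could be very unequal. At the 4 most unequal sites in favour of GATA2 its −log10 q was between 236 and 327, while that of RUNX1 was between 2.15 and 3.07, barely above the lowest value in the list. They lay on chromosome 11 from 119997268 to 119997932, chromosome 16 from 21272787 to 21273250, and chromosome 13 from 52165072 to 52165721 and from 91068625 to 91069252. WT had the GATA2 peak at all 4 and the RUNX1 peak at 1, the site of chromosome 13 that starts at 52165072. At the 4 most unequal sites in favour of RUNX1 its −log10 q was between 63.3 and 104 and that of GATA2 between 3.51 and 4.23. They lay on chromosome 17 from 78193231 to 78193569, chromosome 2 from 174896816 to 174897133, chromosome 20 from 44834713 to 44835012 and chromosome 6 from 143223791 to 143224199. WT had RUNX1 at all 4 and GATA2 at 1, the site of chromosome 6. These sites sit at the edge of detection of the weaker factor, so whether they count as joint depends on the threshold of the list.

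The farthest summits lay in wide GATA2 peaks, as 99 of the 102 distances over 500 bp were in the widest quartile of the GATA2 partners. The 4 joint sites with the largest distance spanned 1382 to 1816 bp and held 1 GATA2 peak and up to 3 RUNX1 peaks each. At each, the GATA2 summit and 1 RUNX1 summit were 1027 to 1145 bp apart. On chromosome 6, at the site from 85750915 to 85752572 and the one named next, the strongest RUNX1 summit lay within 50 bp of the GATA2 summit. The large distance there was that of a weaker RUNX1 peak. The site on chromosome 6 from 29457925 to 29459740 held 3 RUNX1 peaks under a single GATA2 peak with a −log10 q of 467, and WT called 3 GATA2 peaks and 2 RUNX1 peaks there.

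GATA2 peaks without RUNX1 reached high strength as well. The 5 strongest had a −log10 q of 430 to 490.4 and folds of 21.0 to 35.7. The first, on chromosome 17 between 79367665 and 79367998, had a fold of 24.8, and its nearest RUNX1 summit was 159 kb away. It was followed by chromosome 14 from 31291103 to 31291675 (fold 35.7), chromosome 21 from 39863613 to 39864349 (fold 21.0), chromosome 1 from 8074939 to 8075493 (fold 29.0) and chromosome 10 from 75215841 to 75216548 (fold 26.3). WT called GATA2 and no RUNX1 at each of the 5. The nearest RUNX1 summit of the site on chromosome 21 was 5.18 kb away, the closest of the 5, and that on chromosome 14 had it at 217 kb, the farthest.

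The strongest RUNX1 peaks without GATA2 had a −log10 q of 201 to 312 and folds of 12.9 to 21.4. They lay on chromosome 8 from 142046118 to 142046545, chromosome 1 from 205180642 to 205181048, chromosome 11 from 72452483 to 72452919, chromosome 19 from 45256534 to 45256912 and chromosome 16 from 12009786 to 12010144. WT called RUNX1 and no GATA2 at each of the 5, with folds of 5.26 to 6.29. SMC3 was called in Q592* at 1 of them, that of chromosome 1. The local background in Q592* was 3.57 to 5.40 times the most common value of the list at all 5. In WT it was 6.38 to 8.06 times that of the WT RUNX1 list. The median over the 5 in Q592* was 4.60. High values also occurred at the 8 strongest joint sites, where that of RUNX1 was 1.49 to 9.44 times, with a median of 3.10.

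Over the whole list a high local background was more frequent at RUNX1 peaks without GATA2 than at those with it. The local background of a peak, recovered from its deposited fold and −log10 p, exceeded 3 times the most common value of its list at 28.5% of the RUNX1 peaks with GATA2 (27.7 to 29.4%) and 46.5% of those without (45.0 to 48.1%). For GATA2 the order was the opposite, 28.2% with RUNX1 and 14.9% without. In partner shares, GATA2 was present at 64.7% of the RUNX1 peaks with a high local background and at 79.96% of the others. RUNX1 was present at 31.5% of the GATA2 peaks with a high local background and at 17.0% of the others. The same order held within each quartile of strength for both factors in Q592*, for instance 76.1% and 90.2% for the strongest RUNX1 quartile and 54.3% and 47.6% for the strongest GATA2 quartile. With peaks of high local background left out of each list, 7625 joint and 2464 RUNX1-only regions remained, against 11225 and 3817 with them. GATA2 was then at 75.8% of the remaining RUNX1 peaks. A RUNX1 peak whose GATA2 partner was left out counted there as having none. The part of the local background in the RUNX1-only class was not tested.

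Cohesin was found more often at joint sites than at sites of either factor alone. Over all 61291 regions, 11.9% overlapped an SMC3 peak of the Q592* line. The share was 29.3% for joint regions (28.5 to 30.2%), 7.51% for GATA2-only regions (7.27 to 7.76%) and 14.3% for RUNX1-only regions (13.2 to 15.5%). Joint regions were wider, with a median of 451 bp against 257 bp for GATA2-only and 199 bp for RUNX1-only regions. With a reciprocal overlap of 50% the shares were 21.5%, 4.44% and 14.8%. The part of width in these shares was not tested.

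The order also held within quartiles of strength of a factor. A quartile still spans a range, from a −log10 q of 37.7 to 822 in the strongest GATA2 quartile. Strength within a quartile was not matched. In the strongest GATA2 quartile, SMC3 was at 38.1% of the joint and 15.5% of the GATA2-only regions, and in the weakest at 15.2% and 5.27%. In the strongest RUNX1 quartile it was at 42.0% of the joint and 18.1% of the RUNX1-only regions, and in the weakest at 21.9% and 11.6%.

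The SMC3 peaks at joint sites were weak ones. Their median −log10 q was 7.62, at percentile 16.8 of the SMC3 list, whose own median was 25.3. The median was 17.8 for SMC3 peaks at GATA2-only sites, and 32.7 at RUNX1-only sites. With a −log10 q of at least 10 required in every list, SMC3 was at 12.1% of the joint, 5.10% of the GATA2-only and 10.8% of the RUNX1-only regions. The joint share was then close to that of RUNX1-only regions, while weak GATA2 and RUNX1 peaks were left out by the same rule. At equal list lengths the single classes changed order, with SMC3 at 14.9% of the GATA2-only and 14.2% of the RUNX1-only regions. At joint sites the SMC3 summit lay a median of 62 bp from the GATA2 summit and 61 bp from the RUNX1 summit, and it was nearer to GATA2 at 1675 pairs and nearer to RUNX1 at 1670. At RUNX1-only sites the median distance was 41.5 bp, and at GATA2-only sites 58 bp.

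WT differed here in level and kept the order between joint and single sites. SMC3 of the WT line was at 58.8% of its joint, 19.2% of its GATA2-only and 22.98% of its RUNX1-only regions. It was at 26.3% of all WT regions. Those regions were called in WT and differ from the Q592* regions. At the Q592* regions, SMC3 of the WT line was at 45.5% of joint, 13.6% of GATA2-only and 18.8% of RUNX1-only regions. The WT SMC3 list was longer, at 41215 peaks on chromosomes 1 to 22 against 31878 in Q592*. At WT joint sites the median −log10 q of SMC3 peaks was 8.60, against 7.45 at WT GATA2-only and 8.75 at WT RUNX1-only sites, so the strong SMC3 peaks at RUNX1-only sites seen in Q592* had no counterpart in the WT median.

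**Figure D5:**
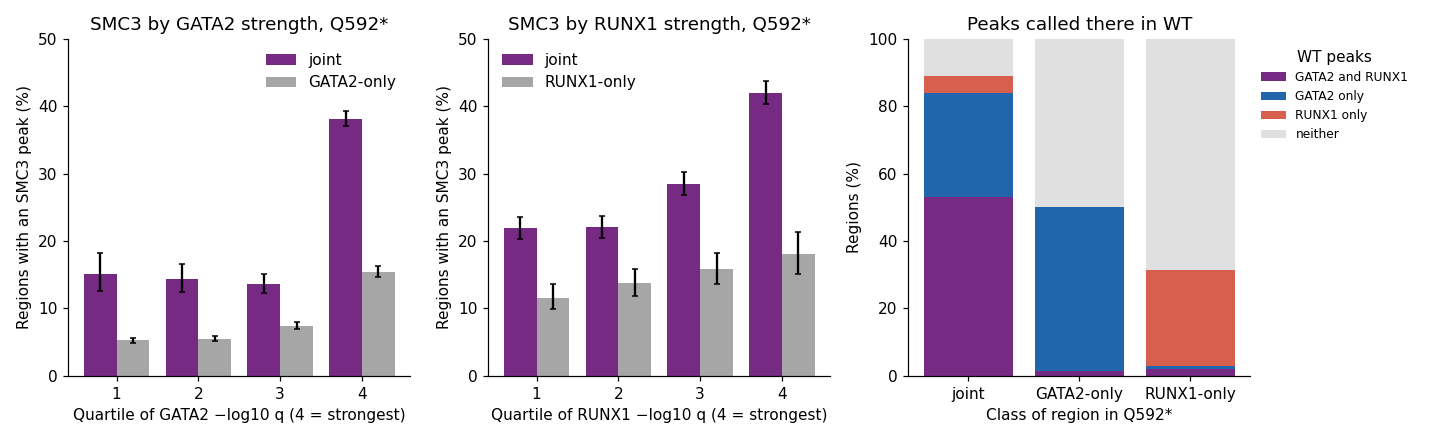
Left and middle, percentage of Q592* regions with an SMC3 peak of the same line, by quartile of GATA2 or RUNX1 −log10 q, for joint regions (purple) and single regions (grey), with 95% Wilson intervals. Right, the share of the regions of each Q592* class at which WT had peaks of both factors, of GATA2 only, of RUNX1 only or of neither. Joint regions lie above single ones in each quartile, and 53.2% of them carried both factors in WT.

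Peaks of each factor were found again in WT more often at joint than at single sites. Of all Q592* regions, 43.8% carried neither factor in WT. Among the joint regions 5973 (53.2%, 52.3 to 54.1%) carried both factors in WT, 3441 (30.7%) GATA2 only, 589 (5.25%) RUNX1 only and 1222 (10.9%) neither. A WT GATA2 peak was thus present at 83.9% and a WT RUNX1 peak at 58.5% of the joint regions. Of the GATA2-only regions 50.1% had a WT GATA2 peak and 49.8% neither factor. Of the RUNX1-only regions 30.4% (29.0 to 31.9%) had a WT RUNX1 peak and 68.7% neither factor. The share of joint regions with both factors in WT did not always exceed that of GATA2-only regions with GATA2: with a −log10 q of at least 10 in every list they were 46.97% and 49.2%.

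Within quartiles of strength the gap was narrow for strong GATA2 peaks and wide for strong RUNX1 peaks. In the strongest GATA2 quartile a WT GATA2 peak was present at 98.3% of the joint and 96.2% of the GATA2-only regions. In the weakest GATA2 quartile it was present at 28.3% and 20.5%. In the strongest RUNX1 quartile a WT RUNX1 peak was present at 94.4% of the joint and 70.7% of the RUNX1-only regions, and in the weakest at 24.5% and 14.5%. RUNX1-only sites differ from joint ones in local background as well, and the part of that difference was not tested. Joint regions were also wider than single ones, and the part of width was not tested. Counted from WT, 85.7% of its 6955 joint regions carried both factors in Q592*, and 3458 of its 31103 GATA2-only regions (11.1%) did so.

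The partner shares differed between chromosomes. In Q592* that of RUNX1 lay between 55.0% on chromosome 19 and 81.6% on chromosome 18, with a median of 74.96%. The share of GATA2 peaks with RUNX1 lay between 17.0% on chromosome 13 and 25.9% on chromosome 19. Chromosome 19 also had the fewest GATA2 peaks per RUNX1 peak, 2.11 against a median of 3.77, and the highest local background at RUNX1 peaks, 4.43 times the most common value against a median of 2.37 over chromosomes. After chromosome 19 came chromosome 16, with GATA2 at 62.7% of its RUNX1 peaks. On chromosome 13 between 75 and 100 Mb, GATA2 was at 77.5% (71.4 to 82.6%) of 209 RUNX1 peaks in Q592* and at 57.4% (51.9 to 62.7%) of 317 in WT, while RUNX1 was at 14.5% of 1103 GATA2 peaks in Q592* and 14.3% of 1232 in WT.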

How the data were processed

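The files hold 6 pooled peak lists, 1 per line and target. Bowtie2, Picard and MACS2 and the build hg19 were used per the submitters' processing notes; their versions are not stated in the sources. The deposited fold enrichment is the ratio of ChIP pileup to local background at the summit, and both the −log10 p-value and the −log10 q-value are deposited for that summit. A deposited score, a rounded form of the q-value, was left unused. The summit is the start of a peak plus its summit offset. Weak peaks below a −log10 q of about 2.00 are not in the lists.

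Pileup and local background were solved per peak from fold and −log10 p with the Poisson formula of MACS2. A whole number of reads was found for at least 99.9% of the peaks of each list within 0.002 of the deposited −log10 p. Totals assume an effective genome of 2700000000 bp and a fragment as long as the narrowest peak. For rank agreement a RUNX1 peak was paired with its strongest overlapping GATA2 peak, for distances with the nearest summit. Percentiles, quartiles and deciles are of −log10 q within a list; a region with several peaks takes the strongest.

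Sites named by position were the 8 strongest joint sites, the 5 strongest single sites of each factor, and the 4 most unequal each way and 4 farthest joint sites. Unequal sites had the stronger peak in the top 10% of its list. The members and lists were chosen with earlier results of these data known. Promoter, motif and gene list results had been planned and were not run, since hg19 sequence and annotation were not used here. Functions were tested on simulated data. Work was done in Python 3.11.15 with matplotlib 3.10.9, scipy 1.17.1, pandas 2.3.3 and numpy 2.4.6.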

Additional observations from a re-analysis of the deposited data

How the results depend on the processing

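No paired analysis was possible because the lists give no values by replicate, and the Q592* RUNX1 list has 1 library by the labels, so no library could be left out either. All 7 changes of list or overlap and both single changes of measure were planned. Adding X and Y, and leaving out chromosome 13 from 75 to 100 Mb, changed none of their 42 values beyond the interval of the reported value or 1.5 times the reported count. Fold in place of −log10 q, and the strongest in place of the nearest GATA2 partner, changed none either. The SMC3 share was higher for joint than for both single classes under every alternative to list or overlap, but the intervals of joint and RUNX1-only regions overlapped where a −log10 q of 10 was required. The cause of the changes below was not tested. Peaks under the thresholds of the lists limit all counts.

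Values follow in a fixed order where they changed: regions; partner share of all, weakest-quartile and strongest-quartile peaks of GATA2, then RUNX1; median summit distance, rho, and median distance of single GATA2 and RUNX1 peaks to the other factor; SMC3 share; share with the same factor or pair in WT; partner share in WT.

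Reciprocal overlap of 50% gave 7215 joint and 8001 RUNX1-only regions. RUNX1 was at 12.6%, 3.37% and 28.5% of GATA2 peaks and GATA2 at 47.4%, 29.0% and 70.3% of RUNX1 peaks. Summits were 31 bp apart, rho was 0.48, and single peaks lay 27.0 and 0.324 kb away. SMC3 was at 21.5% of joint and 4.44% of GATA2-only regions, and WT had GATA2 at 46.7% of GATA2-only and RUNX1 at 35.7% of RUNX1-only regions. The WT partner shares were 12.1% and 49.1%.

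Summits within 200 bp gave 18.8% of GATA2 peaks, 47.7% in the strongest quartile, and 70.96%, 65.3% and 81.2% of RUNX1 peaks. Single peaks lay 31.4 and 5.95 kb away. SMC3 was at 27.2% of joint and 6.58% of GATA2-only regions, WT had the same factor at 49.4% of GATA2-only and 33.0% of RUNX1-only regions, and the WT partner shares were 17.6% and 71.1%.

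A −log10 q of at least 10 gave 7286 joint and 30787 GATA2-only regions. RUNX1 was at 19.1%, 5.38% and 45.5% of GATA2 peaks, and GATA2 at 72.1% of RUNX1 peaks and 62.7% of the weakest quartile. Summits were 31 bp apart, and single peaks lay 48.9 and 12.3 kb away. SMC3 was at 12.1% of joint, 5.10% of GATA2-only and 10.8% of RUNX1-only regions. WT had both factors at 46.97% of joint and GATA2 at 49.2% of GATA2-only regions, and its partner shares were 16.6% and 71.8%. GATA2 widths were 467 bp with and 312 bp without RUNX1.

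Equal list lengths gave 7312 joint, 7904 GATA2-only and 7752 RUNX1-only regions, with partner shares of 48.1% and 49.1%. Partner shares by quartile of strength were not computed at equal list lengths. Summits were 32 bp apart, rho was 0.23, and single peaks lay 29.3 and 30.3 kb away. SMC3 was at 37.4% of joint and 14.9% of GATA2-only regions. WT had both factors at 51.2% of joint regions and the same factor at 46.8% of GATA2-only and 38.98% of RUNX1-only regions. Its partner shares were 43.8% and 44.5%.

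With peaks of high local background left out of each list, 2464 RUNX1-only regions remained. RUNX1 was at 16.1%, 3.51% and 41.99% of GATA2 peaks, and GATA2 at 75.8% of RUNX1 peaks and 73.5% of the weakest quartile. Single peaks lay 48.8 and 9.91 kb away. SMC3 was at 26.4% of joint, 6.45% of GATA2-only and 12.5% of RUNX1-only regions. WT had both factors at 48.6% of joint regions and the same factor at 47.1% of GATA2-only and 33.0% of RUNX1-only regions, and RUNX1 at 16.6% of its GATA2 peaks. GATA2 widths were 442 bp with and 255 bp without RUNX1.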
